A study of Mus musculus with 6 samples.

Results

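Fibronectin and 9 other glycoproteins of the extracellular matrix were followed in 393P_vector and 393P_ZEB1 cells, which derive from a mouse lung adenocarcinoma (LUAD) line of epithelial character. The 10 genes, Fn1, Tnc, Spp1, Postn, Thbs1, Thbs2, Fbn1, Vcan, Bgn and Dcn, were taken by name from the 24214 genes and other features of the count tables. The choice was made with earlier results of these data known, though the rule itself uses no measured value. Total RNA was sequenced from 6 samples, 3 of cells with an empty vector (393P_vector) and 3 of cells with ectopic ZEB1 (393P_ZEB1), the transcription factor that drives epithelial-to-mesenchymal transition (EMT). All 6 were transfectants of mouse lung cancer cells of C57BL/6 strain background, grown in RPMI-1640 medium with FCS, so the groups differ in the labels by the vector alone. The labels do not say whether the 3 samples of a group came from separate transfections, clones or cultures, so the p-values below measure only the spread between these samples, which may be technical.

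Matrix glycoproteins are secreted proteins that build fibrils outside the cell or regulate how cells attach to them. Fibronectin is assembled into fibrils by integrins and is widely used as a mesenchymal marker in EMT. Tenascin C, osteopontin, periostin and the thrombospondins are matricellular proteins, which signal to cells more than they bear load. Fibrillin 1 forms microfibrils, versican is a large proteoglycan that binds hyaluronan, and biglycan and decorin are small leucine-rich proteoglycans that bind collagen.

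ZEB1 and the microRNA (miRNA) miR-200 family repress each other, and ZEB1 binds the E-box CAGGTG, so the members were searched for both kinds of sequence. The mature miR-200 miRNAs are shown because the members were searched with their seeds, of which there are 2 (bases 2 to 8, in capitals, RefSeq, GRCm38.p6):
miR-200b-3p: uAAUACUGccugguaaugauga
miR-200c-3p: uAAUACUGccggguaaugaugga
miR-429-3p: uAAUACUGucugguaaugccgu
miR-200a-3p: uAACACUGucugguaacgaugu
miR-141-3p: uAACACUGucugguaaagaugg

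A seed match is the reverse complement of bases 2 to 8, CAGTATT for the first 3 miRNAs and CAGTGTT for the last 2. In the 3′ UTRs of the GENCODE M21 transcripts (GRCm38, 1 transcript a gene), 3 of the 10 members held a match on the transcribed strand. They are shown as the only matches found, 5′ to 3′ on the transcript, with the match in capitals and, for Vcan, the A that follows it (an 8-base match):
Fn1, chr1:71585663-71585691, minus strand, miR-200b/miR-200c/miR-429 seed: tcaatttttccCAGTATTtttatacggaa
Fn1, chr1:71585952-71585980, minus strand, miR-200a/miR-141 seed: tcagtactgctCAGTGTTgtttaagagaa
Thbs2, chr17:14667168-14667196, minus strand, miR-200b/miR-200c/miR-429 seed: gtaattacttgCAGTATTtatgtgtatat
Vcan, chr13:89656139-89656168, minus strand, miR-200a/miR-141 seed: tagtaatttctCAGTGTTAccttttatatt

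Such matches are common. Among 12005 tested genes with a 3′ UTR, 15.7% held CAGTATT, 21.0% held CAGTGTT and 30.4% held either. The 3 members with a match went in different directions, since Fn1 and Vcan were higher and Thbs2 was lower in 393P_ZEB1 cells (values below). A match describes letters only and was not tested as a site.

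Promoter windows, 250 bases before to 50 after a start site, were at hand for 7 of the 10 members (10 windows, RefSeq, GRCm38.p6). CAGGTG or its reverse complement CACCTG stood in 1 of these 10 windows, against 20.2% of all 32851 windows, and the longer form CAGGTGA or TCACCTG in 0, against 6.30%. The window with the motif belonged to Spp1. It is shown together with the Bgn window, which belongs to the member that fell most, 5′ to 3′ on the plus strand, up to the base before the start, with the E-box in capitals:
Spp1, chr5:104434861-104435110: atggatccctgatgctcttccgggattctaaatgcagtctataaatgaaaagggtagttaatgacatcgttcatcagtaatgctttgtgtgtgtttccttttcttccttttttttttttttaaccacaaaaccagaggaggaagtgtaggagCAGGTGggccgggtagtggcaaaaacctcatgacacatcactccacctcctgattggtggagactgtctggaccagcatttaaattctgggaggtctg
Bgn, chrX:73483351-73483600: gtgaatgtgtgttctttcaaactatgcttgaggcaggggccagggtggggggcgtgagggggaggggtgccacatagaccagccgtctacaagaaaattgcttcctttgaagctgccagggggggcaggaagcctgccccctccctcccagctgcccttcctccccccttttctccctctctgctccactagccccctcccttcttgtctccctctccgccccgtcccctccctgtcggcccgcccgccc

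The Spp1 E-box began 98 bases before the start, in a gene that was higher in 393P_ZEB1 cells. The Bgn window held neither orientation of the motif. Its start is that of RefSeq, whereas the counted Bgn gene begins at 73483635, so the bases shown do not reach that start. No match in a window says only that these letters are not there.

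The samples held 54442450 to 79158012 counted reads, and 3 counts, the limit that a count of 0 allows, corresponded to 0.0361 to 0.0561 CPM (counts scaled to the same total in each sample, the unit used for all levels below), for counting error only. Zeb1 itself was 21.5 ± 0.435 CPM in 393P_vector cells and 51.7 ± 3.01 CPM in 393P_ZEB1 cells (SD, n = 3 each; edgeR adjusted p = 6.06e-05), in the direction of the labels. Of 9 epithelial markers, 8 were lower in 393P_ZEB1 cells, with a median log2 fold change of -6.03 over the 9. Their summed level, most of it from the keratins Krt8, Krt18 and Krt19, was 4829 to 5495 CPM against 2747 to 3044 CPM. 393P_vector replicate 3 stood apart from its group. 8.98 and 9.93% of genes differed 2-fold or more between it and replicates 1 and 2, against 2.77 to 3.83% in the other pairs within groups. Results that rest on it are given with and without it.

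The 10 genes together took 0.457 to 0.492% of all counted reads in 393P_vector cells and 0.652 to 0.690% in 393P_ZEB1 cells. Fn1 alone made up 49.9 to 54.4% of the reads of the 10 genes in each sample. Of the 10 genes, 9 passed the filter on low counts and 1, Dcn, did not. In edgeR's quasi-likelihood test with Benjamini-Hochberg adjustment over 13892 genes (adjusted p below 0.05), 4 members were higher in 393P_ZEB1 cells (Fn1, Spp1, Fbn1 and Vcan), 2 were lower (Bgn and Thbs2), and 3 did not pass (Tnc, Thbs1 and Postn). The test called 37.6% of all genes, 18.3% higher and 19.3% lower, so a call by itself was common in these cells. The groups did not overlap for 6 of the 9 tested members, the 6 that were called, and for 52.8% of all genes tested. Among all called genes, 5188 of 5218 did not overlap, so the lack of overlap adds little to a call. The median log2 fold change was 0.42 over the 9 members and -0.02 over all genes tested. For each of the 6 called members the exact two-sided permutation test gave p = 0.1, the smallest that 3 samples against 3 allow.

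**Figure D1:**
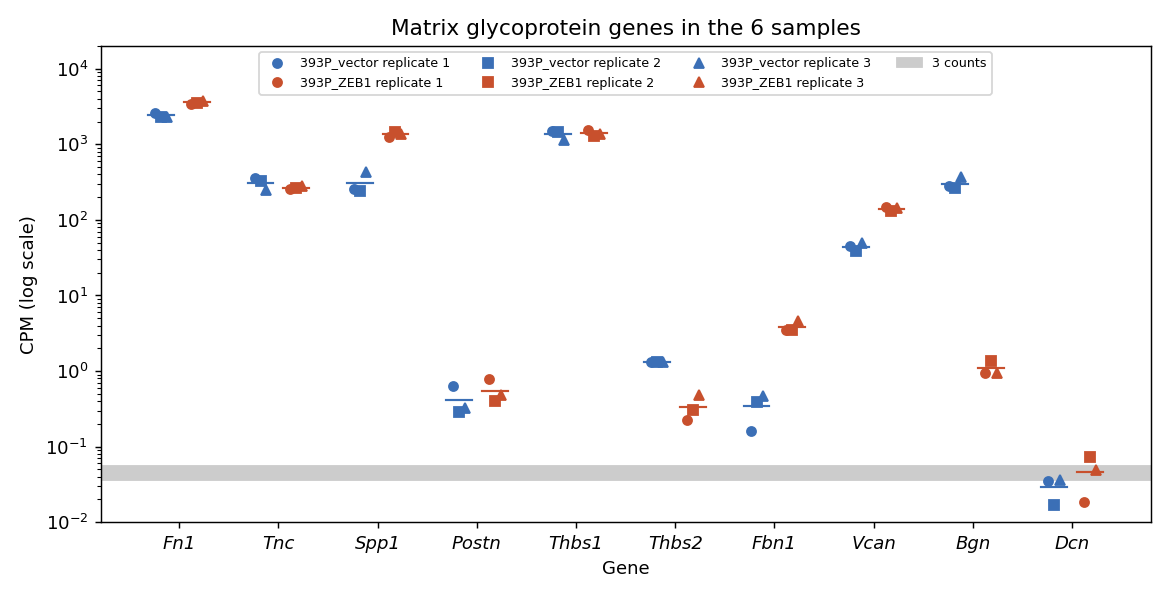
Level of the 10 matrix glycoprotein genes in each sample, in CPM on a log scale. Points are samples (blue, 393P_vector; red, 393P_ZEB1), lines are group means and the grey band is the level of 3 counts. Bgn falls from 302 to 1.08 CPM, Fbn1 rises from 0.340 to 3.85 CPM, and Dcn sits at the band.

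The fibril-forming members were higher. Fn1 (chr1:71585523-71653171, minus strand, 46 exons) encodes fibronectin. Its level was 2617, 2318 and 2315 CPM in 393P_vector replicates 1 to 3 and 3423, 3529 and 3766 CPM in 393P_ZEB1 replicates 1 to 3. The groups did not overlap, and replicates lay close together in both. The rise was small on a fold scale, 1.48-fold, from 2417 ± 174 to 3573 ± 175 CPM (SD, n = 3 each; log2 fold change 0.56, SE 0.11, 95% interval 0.31 to 0.82, edgeR adjusted p = 0.00571). It was not past a test against a change of 1.5-fold (edgeR adjusted p = 0.856). Fn1 ranked 185 of 13892 genes by CPM per kilobase of exon in 393P_vector cells and 131 in 393P_ZEB1 cells. All 46 exons had more than 10 reads in every sample. Counts were summed over the gene, so splice forms of fibronectin that differ by single exons could not be told apart.

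Fbn1 (chr2:125300594-125506438, minus strand, 66 exons), which encodes fibrillin 1, had the largest fold rise of the 9 tested members and remained a low gene. It had 9, 23 and 39 reads in 393P_vector cells (0.16, 0.39 and 0.47 CPM) and 186, 194 and 280 reads in 393P_ZEB1 cells (3.48, 3.49 and 4.59 CPM). Every 393P_ZEB1 sample was several times above every 393P_vector sample. The change was 11-fold (log2 fold change 3.47, SE 0.36, 95% interval 2.64 to 4.29, edgeR adjusted p = 0.000213). Its size depended on the method and the samples, with a log2 fold change of 4.09 under limma voom and of 3.15 to 3.79 with 1 sample left out. Fbn1 reached the level of the filter in 2 of the 3 samples of 393P_vector and in 3 of 393P_ZEB1, so it was tested only through the group where it was high. More than 10 reads fell on 2 to 3 of its 66 exons in 393P_ZEB1 cells and on 0 in 393P_vector cells.

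Vcan and Bgn, both chondroitin sulfate proteoglycans, moved in opposite directions. Vcan (chr13:89655310-89742512, minus strand, 16 exons) encodes versican, which fills the space around cells together with hyaluronan. Its level was 44.6, 38.4 and 49.7 CPM in 393P_vector cells and 146, 130 and 144 CPM in 393P_ZEB1 cells. The lowest 393P_ZEB1 sample was above every 393P_vector sample by more than the spread within either group. The rise was 3.16-fold (44.2 ± 5.67 to 140 ± 8.90 CPM, SD, n = 3 each; log2 fold change 1.66, SE 0.13, 95% interval 1.37 to 1.96, edgeR adjusted p = 4.00e-05). At least 15 of the 16 exons had more than 10 reads in each sample.

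Bgn (chrX:73483635-73495936, plus strand, 8 exons) encodes biglycan, and it nearly disappeared. It had 15718, 15584 and 30292 reads in 393P_vector cells (278, 265 and 365 CPM) and 50, 76 and 58 reads in 393P_ZEB1 cells (0.93, 1.37 and 0.95 CPM). The 393P_ZEB1 samples were low but above the level of 3 counts in each. The fall was 279-fold (302 ± 54.3 to 1.08 ± 0.246 CPM, SD, n = 3 each; log2 fold change -8.12, SE 0.24, 95% interval -8.68 to -7.57, edgeR adjusted p = 6.22e-07). Its rank by CPM per kilobase of exon went from 472 to 11522 of 13892 genes. All 8 exons had more than 10 reads in 393P_vector cells and 1 exon did in 393P_ZEB1 cells.

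Dcn (chr10:97479500-97518162, plus strand), which encodes decorin, the closest relative of biglycan, was at the floor in both groups. It had 2, 1 and 3 reads in 393P_vector cells and 1, 4 and 3 reads in 393P_ZEB1 cells. A difference was not detectable at this depth, and no fold is given.

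Spp1, the osteopontin gene, was among the most abundant transcripts after ZEB1. Osteopontin (chr5:104435111-104441053, plus strand, 10 exons) is a secreted phosphoprotein that binds integrins and CD44. Its level was 253, 244 and 426 CPM in 393P_vector cells and 1249, 1436 and 1369 CPM in 393P_ZEB1 cells. 393P_vector replicate 3 was high within its group but far below each 393P_ZEB1 sample. The rise was 4.40-fold (307 ± 102 to 1351 ± 94.8 CPM, SD, n = 3 each; log2 fold change 2.14, SE 0.23, 95% interval 1.61 to 2.66, edgeR adjusted p = 0.000255). By CPM per kilobase of exon, Spp1 moved from rank 301 to rank 87 of 13892 genes.

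The thrombospondins inhibit angiogenesis and, in the case of thrombospondin 1, can release TGF-beta from its latent form. Thbs1 (chr2:118111922-118127133, plus strand) was abundant in both groups, 1479, 1446 and 1133 CPM in 393P_vector cells and 1553, 1275 and 1355 CPM in 393P_ZEB1 cells. The groups overlapped. The log2 fold change was 0.04 (SE 0.14, 95% interval -0.29 to 0.38, edgeR adjusted p = 0.834), an interval that leaves room for a small change either way. Its sign was not stable, being -0.07 without 393P_vector replicate 3 and -0.04 without 393P_ZEB1 replicate 1.

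Thbs2 (chr17:14665500-14694262, minus strand) was far less abundant and fell. It had 74, 77 and 111 reads in 393P_vector cells (1.31, 1.31 and 1.34 CPM) and 12, 17 and 29 reads in 393P_ZEB1 cells (0.22, 0.31 and 0.47 CPM). The 393P_vector samples were nearly equal, and the 393P_ZEB1 samples were all lower and more spread. The fall was 3.89-fold (log2 fold change -1.96, SE 0.29, 95% interval -2.64 to -1.28, edgeR adjusted p = 0.00150). The 675 genes tested on chromosome 17 had a median log2 fold change of -0.43, and its part in the Thbs2 value was not tested. The chromosome medians beside the other called members were between -0.07 and 0.13. Over all chromosomes but 17 and Y, the medians lay between -0.36 (chromosome 6) and 0.64 (chromosome 18). Chromosome Y had -6.89 over 6 tested genes. The part of these medians in the values of the members and of the relatives below was not tested.

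Tnc and Postn did not pass the test. Tnc (chr4:63959785-64047015, minus strand) encodes tenascin C, which loosens the attachment of cells to fibronectin. Its level was 354, 329 and 245 CPM in 393P_vector cells and 255, 260 and 280 CPM in 393P_ZEB1 cells. The groups overlapped only through 393P_vector replicate 3. The log2 fold change was -0.22 (SE 0.15, 95% interval -0.57 to 0.12, edgeR adjusted p = 0.273), and without that sample it was -0.37 and past the threshold (edgeR adjusted p = 0.00283). Postn (chr3:54361107-54391041, plus strand) encodes periostin, which binds fibronectin and integrins. It had 36, 17 and 27 reads in 393P_vector cells and 42, 22 and 29 reads in 393P_ZEB1 cells, all below 1 CPM. The groups overlapped (log2 fold change 0.42, SE 0.41, 95% interval -0.53 to 1.36, edgeR adjusted p = 0.456), and the width of the interval allows a change of either sign at this depth.

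**Figure D2:**
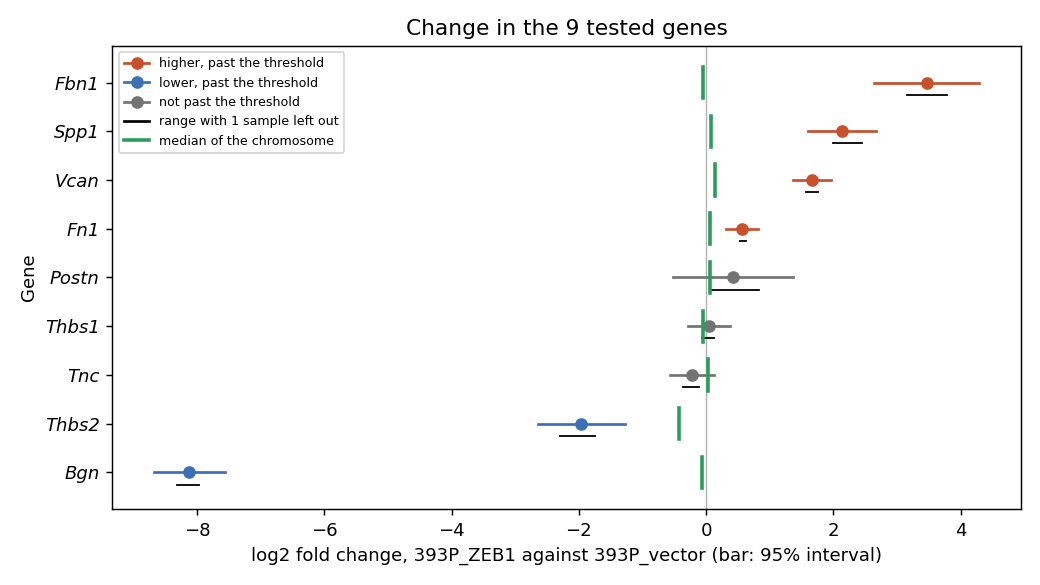
Log2 fold change of the 9 tested members, 393P_ZEB1 against 393P_vector, with 95% intervals, the range of values when 1 sample is left out (black) and the median of all genes tested on the same chromosome (green). Bgn at -8.12 and Fbn1 at 3.47 lie far from their chromosome medians, and the intervals of Postn, Thbs1 and Tnc include 0.

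The order of the levels was compared per length, as CPM per kilobase of exon. In 393P_vector cells Fn1 was highest (292 CPM per kb), followed by Thbs1 (234), Spp1 (186) and Bgn (127). In this order the ranges of Thbs1 and Spp1 overlapped, and Spp1 was above Thbs1 in replicate 3 alone. The ranges of Spp1 and Bgn overlapped too, although Spp1 was above Bgn within each of the 3 samples. Tnc (43.8 CPM per kb) and Vcan (3.01 CPM per kb) came next, and Thbs2 (0.223), Postn (0.127), Fbn1 (0.0346) and Dcn (0.0142) were below 1 CPM per kb. Fbn1 and Dcn overlapped.

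In 393P_ZEB1 cells the leading gene was Spp1 (819 CPM per kb), above Fn1 (432), Thbs1 (241) and Tnc (37.5), with no overlap between these neighbours. Vcan (9.54 CPM per kb) was next. Bgn (0.455 CPM per kb) had dropped to the level of Fbn1 (0.392 CPM per kb), with which it overlapped. Postn (0.169), Thbs2 (0.0568) and Dcn (0.0225) were lowest.

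**Figure D3:**
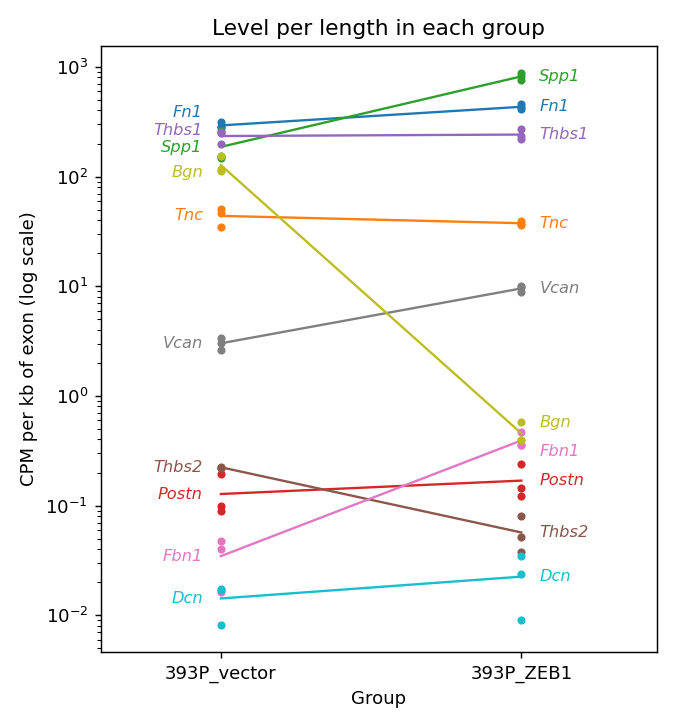
Level of each member in both groups, in CPM per kb of exon on a log scale. Points are samples and lines join the group means. The line of Bgn drops from 127 to 0.455 CPM per kb, and Spp1 passes Fn1 to reach 819 CPM per kb.

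Several members are better known from fibroblasts than from tumour cells, so markers of other cell types were read beside them. The 9 fibroblast markers summed to 2.77 to 3.65 CPM in 393P_vector cells and 2.13 to 3.07 CPM in 393P_ZEB1 cells. Of these, Cd34 and Pdgfrb were higher, Pdgfra was lower, Col1a1 and Col1a2 did not pass, and 4 (Fap, Thy1, Tcf21 and Pi16) were too low to test. The 7 leukocyte markers summed to 2.74 to 4.98 CPM and 1.80 to 2.18 CPM, and the 5 endothelial markers to 2.82 to 3.13 CPM and 0.846 to 1.40 CPM. The level of Bgn in 393P_vector cells was well above the sum of all 9 fibroblast markers in the same samples. Levels of different genes do not give the share of a cell type, so no source is read from this. The levels of Thbs2 and Postn were below each of these sums in both groups. Fbn1 was below each sum in 393P_vector cells and above each in 393P_ZEB1 cells (3.48 to 4.59 CPM). The part of such cells in the levels of the members was not tested. In bulk samples, fewer cells of a type and less RNA per cell cannot be told apart.

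Relatives of the members were read by family. These families were picked from the list of other matrix glycoproteins after the values were seen. Among the tenascins, Tnr (tenascin R) rose from 0.109 ± 0.0510 to 3.58 ± 0.237 CPM (log2 fold change 4.99, SE 0.31, edgeR adjusted p = 1.44e-05) and Tnxb (tenascin X) fell from 2.97 ± 0.323 to 0.444 ± 0.0700 CPM (log2 fold change -2.73, SE 0.22, edgeR adjusted p = 4.82e-05; SD, n = 3 each). Tenascin C, between them, was the abundant member of the family and did not pass. Tnr stayed below the filter in each 393P_vector sample, so it was tested only through 393P_ZEB1.

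Among the thrombospondins, Thbs3 was lower like Thbs2 (24.7 ± 3.70 to 11.02 ± 0.597 CPM, SD, n = 3 each; log2 fold change -1.17, SE 0.15, edgeR adjusted p = 0.000616). Thbs4 and Comp were too low to test. The most abundant of the family, Thbs1, was thus the one tested member that did not pass.

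The fibulins link fibronectin, fibrillin and elastic fibres. Fbln2 fell from 1266 ± 343 to 166 ± 15.4 CPM (log2 fold change -2.93, SE 0.22, edgeR adjusted p = 3.85e-05). Efemp1 (fibulin 3) fell from 12.2 ± 5.66 to 0.0581 ± 0.0362 CPM (log2 fold change -7.65, SE 0.53, edgeR adjusted p = 2.50e-05; SD, n = 3 each) and was at or near the level of 3 counts in 393P_ZEB1 cells, so it was tested only through 393P_vector. Fbln7, which passed the filter only through 393P_ZEB1, rose from 0.0611 to 0.996 CPM (log2 fold change 3.99, SE 0.45, edgeR adjusted p = 0.000352), and Fbln1 (log2 fold change 0.69, edgeR adjusted p = 0.0554) and Efemp2 (fibulin 4; 0.24, edgeR adjusted p = 0.257) did not pass. Fbn2, the other fibrillin of the table, was below 1 CPM and did not pass (log2 fold change -0.63, edgeR adjusted p = 0.410).

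**Figure D4:**
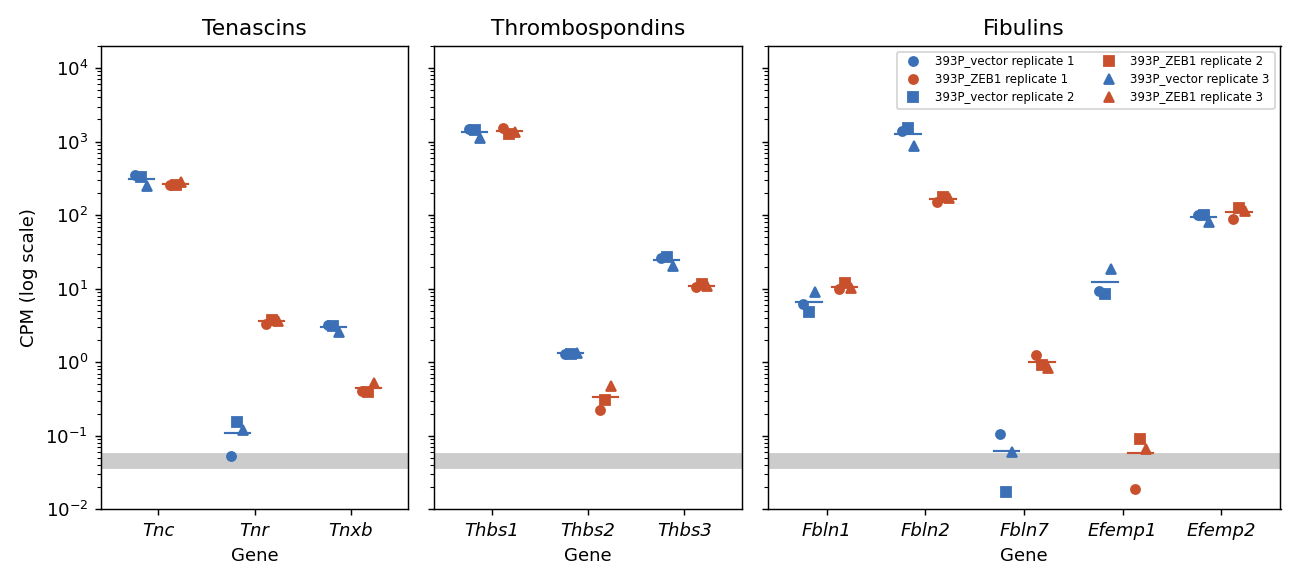
Level of the tested tenascins, thrombospondins and fibulins in each sample, in CPM on a log scale. Points are samples (blue, 393P_vector; red, 393P_ZEB1), lines are group means and the grey band is the level of 3 counts. The abundant Tnc and Thbs1 overlap between groups, as does Efemp2. Tnr, Tnxb, Thbs2, Thbs3, Fbln1, Fbln2, Fbln7 and Efemp1 do not overlap, although Fbln1 did not pass the test. Groups did not overlap for 52.8% of all genes tested.

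Beyond the members, 4 lists of related genes held 138 genes, of which 95 were tested, 28 were higher, 24 were lower and 43 did not pass (median log2 fold change 0.14, against -0.02 over all genes). Over all genes tested, 37.6% were called, 18.3% higher and 19.3% lower, and the counts per list below stand beside the same shares. Of 56 other matrix glycoproteins, 38 were tested, 10 were higher and 11 lower (median 0.12). The largest rises by the naming rule were Tnr, Wisp2 and Igfbp7. Wisp2, a CCN family matricellular gene, rose from 0.133 to 3.65 CPM (log2 fold change 4.74, SE 0.27) and passed the filter only through 393P_ZEB1. Igfbp7, a secreted protein that binds insulin-like growth factors, rose from 6.02 to 51.6 CPM (log2 fold change 3.09, SE 0.33). The largest falls were those of Efemp1, Fbln2 and Tnxb.

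Of 30 other proteoglycans and genes of hyaluronan, 12 were tested, 3 were higher and 4 lower (median -0.20). Podnl1, which like Bgn encodes a small leucine-rich protein, fell from 10.9 ± 0.567 to 0.148 ± 0.107 CPM (SD, n = 3 each; log2 fold change -6.19, SE 0.37, edgeR adjusted p = 1.18e-05). Podnl1 passed the filter only through 393P_vector, whereas Bgn reached the level of the filter in each sample of both groups. Acan, which encodes aggrecan, a hyaluronan-binding relative of versican, was lower by less (120.6 to 69.8 CPM, log2 fold change -0.79, SE 0.21), as was Hapln4, a link protein gene (2.13 to 0.751 CPM, log2 fold change -1.51, SE 0.25). For hyaluronan, the partner of versican, the synthase gene Has3 was higher (4.97 to 10.1 CPM, log2 fold change 1.02, SE 0.13). Has2, the more abundant synthase gene at 53.7 and 53.0 CPM, had a log2 fold change of -0.02 (edgeR adjusted p = 0.929).

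Among 25 cell surface receptors, 23 were tested, 8 were higher and 4 lower (median 0.08). The list took in the receptors of the members and Met, the hepatocyte growth factor receptor. For fibronectin, Itga5, the alpha chain of its main integrin, was lower (129 ± 23.3 to 86.0 ± 4.94 CPM, log2 fold change -0.59, SE 0.15, edgeR adjusted p = 0.0164), while its partner Itgb1 did not pass (log2 fold change -0.03, edgeR adjusted p = 0.856). Itgav did not pass either (log2 fold change 0.01, edgeR adjusted p = 0.967). Itga5 lies on chromosome 15, whose tested genes had a median log2 fold change of -0.33, and the part of this in the Itga5 value was not tested. Of the beta chains that pair with alpha v, Itgb6 fell from 12.2 ± 2.60 to 0.383 ± 0.248 CPM (log2 fold change -4.99, SE 0.41, edgeR adjusted p = 6.06e-05), Itgb5 rose from 70.2 ± 6.80 to 170 ± 10.4 CPM (log2 fold change 1.27, SE 0.11, edgeR adjusted p = 8.93e-05), and Itgb3 was lower (log2 fold change -0.51, edgeR adjusted p = 0.00733; SD, n = 3 each). Itgb8, also a partner of alpha v, was higher at a low level (0.194 to 0.740 CPM, log2 fold change 1.84, SE 0.51, edgeR adjusted p = 0.0257) and passed the filter only through 393P_ZEB1.

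For osteopontin, whose receptors include alpha v integrins and CD44, Cd44 was abundant and did not pass (1291 and 1522 CPM, log2 fold change 0.24, edgeR adjusted p = 0.330). The Toll-like receptors Tlr2 and Tlr4, through which soluble biglycan signals, were both higher (2.46 to 11.9 CPM, log2 fold change 2.28, SE 0.14, and 20.1 to 34.4 CPM, log2 fold change 0.78, SE 0.21). Met was lower (454 to 286 CPM, log2 fold change -0.67, SE 0.12). It lies on chromosome 6, whose tested genes had a median log2 fold change of -0.36, and the part of this in the Met value was not tested.

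The last list held 27 enzymes that build the chondroitin and dermatan sulfate chains of Vcan, Bgn and Dcn or cleave versican. 22 were tested, 7 were higher and 5 lower (median 0.34). Csgalnact1, which starts chondroitin chains, rose from 5.58 ± 0.760 to 59.6 ± 5.99 CPM (log2 fold change 3.42, SE 0.15, edgeR adjusted p = 3.15e-06). Chsy3, a chondroitin synthase, was higher (8.48 to 24.8 CPM, log2 fold change 1.54, SE 0.22) and lies on chromosome 18, whose tested genes had a median log2 fold change of 0.64. Ust, a sulfotransferase, was lower (5.29 to 0.850 CPM, log2 fold change -2.63, SE 0.19).

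The versican-cleaving proteases divided. Adamts1 fell from 102 ± 5.12 to 18.4 ± 0.137 CPM (log2 fold change -2.47, SE 0.10, edgeR adjusted p = 2.16e-06) and Adamts5 from 6.07 ± 0.778 to 0.691 ± 0.183 CPM (log2 fold change -3.13, SE 0.24, edgeR adjusted p = 3.94e-05; SD, n = 3 each). Adamts4 was lower as well (log2 fold change -1.84, edgeR adjusted p = 0.000654). Adamts9 was higher, from 1.10 ± 0.124 to 9.88 ± 1.67 CPM (log2 fold change 3.17, SE 0.20, edgeR adjusted p = 1.42e-05). Adamts15 and Adamts20 were too low to test.

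**Figure D5:**
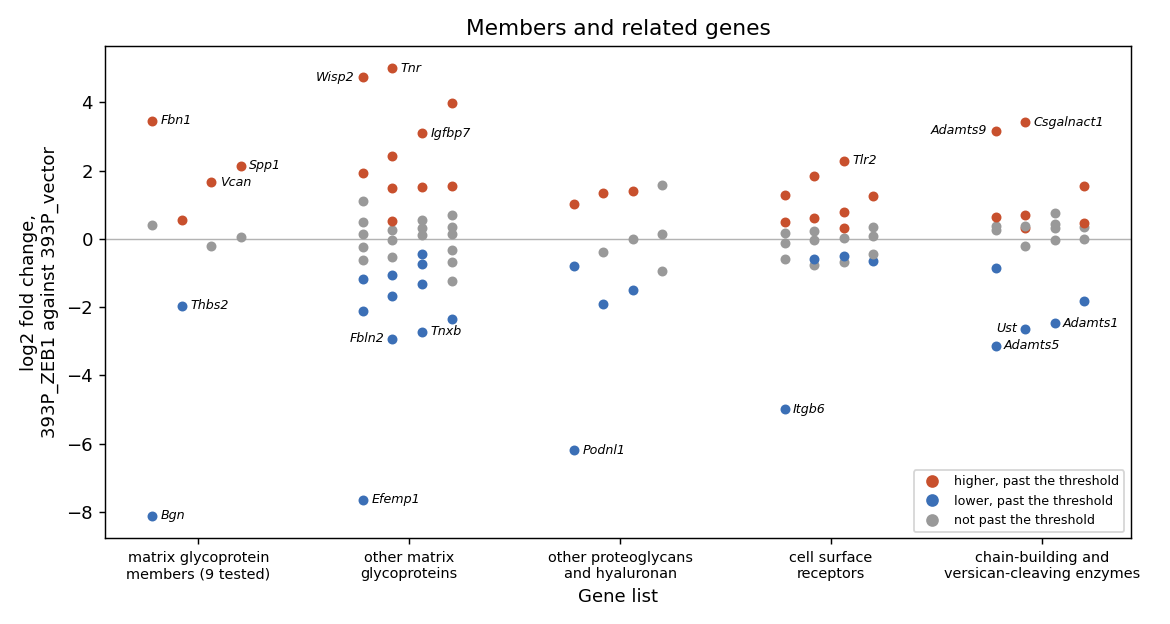
Log2 fold change, 393P_ZEB1 against 393P_vector, of the tested members and of the tested genes in the 4 related lists. Each point is a gene (red, higher; blue, lower; grey, not past the threshold). Calls lie on both sides of 0 in each list, 28 higher and 24 lower over the 4 related lists together. Of all genes tested, 18.3% were higher and 19.3% lower.

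The genes whose pattern over the 6 samples was most like that of Fn1, by distance between centred log2 CPM values, were Pcdhga10 (0.106), Pcdhgb2 (0.111), Pcdhga5 (0.111), Pcdhga11 (0.117) and Atrn (0.117). The first 4 are gamma protocadherins, which share their last exons, so their counts may hold the same reads and are uncertain as separate measurements. They had log2 fold changes of 0.59 to 0.60, near the 0.56 of Fn1. Such closeness follows largely from the choice by distance, here and for Bgn below. Those most like Bgn were Rab25 (0.458), Entpd1 (0.466), Cldn4 (0.701), Il24 (0.739) and Cdcp1 (0.742), with log2 fold changes of -8.40 to -7.80. Rab25, a small GTPase of recycling endosomes, went from 20.2 to 0.0768 CPM, and Cldn4, a tight junction claudin, from 270 to 0.798 CPM.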

How the data were processed

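SOLiD total RNA libraries of 6 samples were analysed, 3 of 393P_vector and 3 of 393P_ZEB1, grouped by their labels. The deposited tables give, for each RefSeq gene, the read count as the authors made it. The deposited RPKM values were made by the authors from the same counts, per kilobase of exon length and read total, and the tables also list the number of exons with more than 10 reads. The aligner, counting program, strand setting and genome build are not given in the sources used here. Gene starts equalled those of RefSeq GRCm38.p6 for 6 of the 7 members with a promoter entry, all but Bgn. The RPKM values imply totals of 99.1 to 99.5% of the summed counts, and were not tested.

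Raw counts were fitted with edgeR 4.0.16 (R 4.3.3): TMM scaling, filterByExpr with a minimum count of 10, robust quasi-likelihood test and Benjamini-Hochberg adjustment at 0.05 over 13892 genes. CPM values use TMM-scaled totals. Distances used log2 CPM with a prior count of 0.5. Intervals are 95%. limma 3.58.1 and DESeq2 1.42.0 served as alternatives. The fit was tested on simulated data with far fewer changed genes than were called here, so its error rate in these samples was not tested. The samples held 54442450 to 79158012 counts, and the biological coefficient of variation was 0.184.

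The text names all 10 members. From each related list it names up to 3 genes a direction with the largest changes past the threshold, without overlap of groups and with a mean of at least 1 CPM. For Fn1 and for Bgn it names the 5 nearest genes, and Zeb1 is the check of the labels. Other genes (family relatives, integrin chains that pair with named ones, Has2, Cd44, Adamts4 and the cell type markers) were chosen after their values were seen. The members and lists were chosen with earlier results of these data known.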

Additional observations from a re-analysis of the deposited data

How the results depend on the processing

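The calls of Spp1, Fbn1, Vcan, Bgn and Thbs2 kept their direction and side of the threshold under each alternative run (14 each, 13 for Fbn1, which a minimum of 10 counts in every sample removes). Against a change of 1.5-fold, Fn1 did not pass (edgeR adjusted p = 0.856), and it passed under the 13 others. Tnc passed under limma voom (log2 fold change -0.36, adjusted p = 0.00144) and without 393P_vector replicate 3. Sign changes were those of Postn (-0.029) and Thbs1 (-0.11) under limma voom, and of Thbs1 with 1 sample left out (-0.069 to 0.12), and the cause was not tested. Over all genes, 3977 were higher and 4094 lower under limma voom, 1081 and 1118 against 1.5-fold (15 related genes higher), and 1584 and 1545 at an adjusted p below 0.01. With 1 sample left out, 1784 (without 393P_ZEB1 replicate 3) to 3776 (without 393P_vector replicate 3) genes were lower. Without 393P_vector replicate 3, 4 members were higher and 3 lower, and 38 related genes were higher and 33 lower. With the replicate block 4 members were higher and 2 lower, and 26 and 22 of the related genes. Same-numbered samples deviated with a correlation of -0.109 to 0.169 and different-numbered ones with -0.106 to 0.141, so the numbers were not taken as pairs, and not every sample correlated best with its own number. Seed matches of 8 bases stood in 3.91% (miR-200b/miR-200c/miR-429), 4.92% (miR-200a/miR-141) and 8.42% (either) of genes, and the longer E-box in 6.30% of windows. DESeq2 size factors moved the median log2 fold change of all genes by 0.00276. Depth limits Dcn, Postn, Fbn1 and Thbs2, which had 1, 17, 9 and 12 reads in their lowest samples.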
